A study of Mus musculus with 15 samples.

Results

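Submandibular glands of mice that had been irradiated and given iEVs (IR_iEV_4d) were compared at day 4 with glands that had been irradiated only (IR_4d). The comparison rests on 6 of the 15 bulk RNA-seq libraries of the study, 3 in each group, which were taken by their library names. The mice were wildtype male C57BL/6 aged 8 to 10 weeks. IR_iEV_4d glands received 15 Gy at the gland region, then iEVs injected into the gland on a weekly schedule that began at day 1, and were collected at day 4. IR_4d glands received the same 15 Gy with no iEVs and were collected at day 4. NT glands, used here as context, were neither irradiated nor given iEVs, and their day of collection is not stated. The day 30 pair, IR_iEV_30d and IR_30d, was used only to ask whether the difference between irradiated glands with and without iEVs was the same on both days. The labels do not spell out iEV, while the series title speaks of extracellular vesicles from mesenchymal stem cells. No group was named as irradiated and injected with vehicle, so the effect of an injection and that of the iEVs cannot be told apart. The labels do not say whether each library came from its own mouse, so p-values measure the spread between these libraries, which may be partly technical.

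Interferons are secreted proteins that bind receptors on almost any nucleated cell and activate transcription factors of the STAT and IRF families. These factors bind a short DNA element in the promoters of interferon-stimulated genes, whose products detect, trap or degrade viral nucleic acids and proteins. Irradiated salivary glands lose secretory function, and both the surviving gland cells and the immune cells between them can express interferon-stimulated genes.

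Of the 16042 genes tested, 5 rose in IR_iEV_4d glands relative to IR_4d glands, and 4 of them (Ifit3, Irf7, Rtp4 and Bst2) belong to lists of interferon-linked genes. The other gene was Sdc3, which encodes a cell-surface proteoglycan. RefSeq promoters (GRCm38.p6, 250 bases before to 50 bases after the gene start) were found for 4 of the 5 genes and are shown because the element bound by interferon-activated factors lies in promoters. Capitals mark matches, on either strand, to GAAANNGAAA, the core of that element, where N is any base. Each promoter is written 5′ to 3′ in the direction of its gene.
Ifit3 (chr19:34583279-34583578, plus strand): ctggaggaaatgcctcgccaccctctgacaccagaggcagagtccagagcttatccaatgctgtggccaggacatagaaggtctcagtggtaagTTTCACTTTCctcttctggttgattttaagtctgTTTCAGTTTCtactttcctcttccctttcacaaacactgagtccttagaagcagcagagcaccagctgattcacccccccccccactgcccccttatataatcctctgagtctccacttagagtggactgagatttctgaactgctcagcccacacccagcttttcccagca
Bst2 (chr8:71537423-71537722, minus strand): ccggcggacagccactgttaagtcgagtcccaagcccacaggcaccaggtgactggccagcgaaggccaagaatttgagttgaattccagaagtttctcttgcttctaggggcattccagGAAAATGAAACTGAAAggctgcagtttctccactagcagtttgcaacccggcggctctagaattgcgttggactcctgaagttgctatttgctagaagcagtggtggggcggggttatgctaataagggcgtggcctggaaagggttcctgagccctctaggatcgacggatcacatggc
Irf7 (chr7:141266375-141266674, minus strand): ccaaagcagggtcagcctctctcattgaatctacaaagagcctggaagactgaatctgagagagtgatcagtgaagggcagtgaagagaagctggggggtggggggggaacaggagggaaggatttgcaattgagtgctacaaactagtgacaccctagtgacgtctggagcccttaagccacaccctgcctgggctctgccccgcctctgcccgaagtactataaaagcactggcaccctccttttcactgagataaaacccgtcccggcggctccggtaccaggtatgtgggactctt
Sdc3 (chr4:130792287-130792586, plus strand): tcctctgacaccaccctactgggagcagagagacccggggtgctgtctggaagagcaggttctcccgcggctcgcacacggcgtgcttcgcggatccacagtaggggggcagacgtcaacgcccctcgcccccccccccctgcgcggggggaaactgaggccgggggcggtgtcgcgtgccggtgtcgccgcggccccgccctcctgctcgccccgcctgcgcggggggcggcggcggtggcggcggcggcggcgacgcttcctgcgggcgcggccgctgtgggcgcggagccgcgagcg

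The Ifit3 promoter held 2 matches, both on the strand opposite to the gene. The Bst2 promoter also held 2 matches, which overlap by 4 bases. The Irf7 and Sdc3 windows held none. For these shares the first listed promoter of each gene symbol was used. Over all 27025 gene symbols with a RefSeq promoter, 3.49% held a match, and over the 12155 tested genes with a promoter 3.15%. Promoters were found for 84 of the 110 tested interferon-linked genes, and 34 of them (40.5%) held a match. The median log2 change between IR_iEV_4d and IR_4d was 0.54 over those 34 genes and 0.22 over the 50 interferon-linked genes without a match. Over all tested genes, the interferon-linked ones included, it was 0.05 for the 383 with a match and 0.00 for the 11772 without one. A match is a run of letters and does not show that a factor was bound.

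The 6 libraries held 29082798 to 40989098 counts each, and the 10 most abundant genes took 39.9% to 50.4% of them. Levels of 1 gland product are given for context and do not verify which salivary gland was collected. Transcripts of Aqp5, which encodes an acinar water channel, lay at 295 to 349.6 CPM (read counts scaled by effective library size) in IR_iEV_4d and 305 to 358 CPM in IR_4d. Markers of other tissues were uneven across the libraries. The mean log2 CPM of 9 sublingual gland markers was 0.88, 5.76 and 6.20 in IR_iEV_4d replicates 1, 2 and 3, and 6.72, 5.72 and 0.43 in IR_4d replicates 1, 2 and 3. Each group therefore had 2 libraries high in these markers and 1 low. The mean of 7 parotid markers was 6.62, 6.71 and 8.15 in IR_iEV_4d and 8.15, 2.61 and 5.51 in IR_4d. The mean of 17 adipose markers was 3.52, 5.07 and 1.82 in IR_iEV_4d and 1.33, -0.18 and 3.78 in IR_4d. Skeletal muscle markers were high in IR_iEV_4d replicate 2 alone, at 1.82 against -1.62 to -0.89 in the other 5 libraries. The mean of the immediate early genes was 5.32 in IR_4d replicate 3 and 3.35 to 3.81 in the other 5 libraries.

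**Figure D1:**
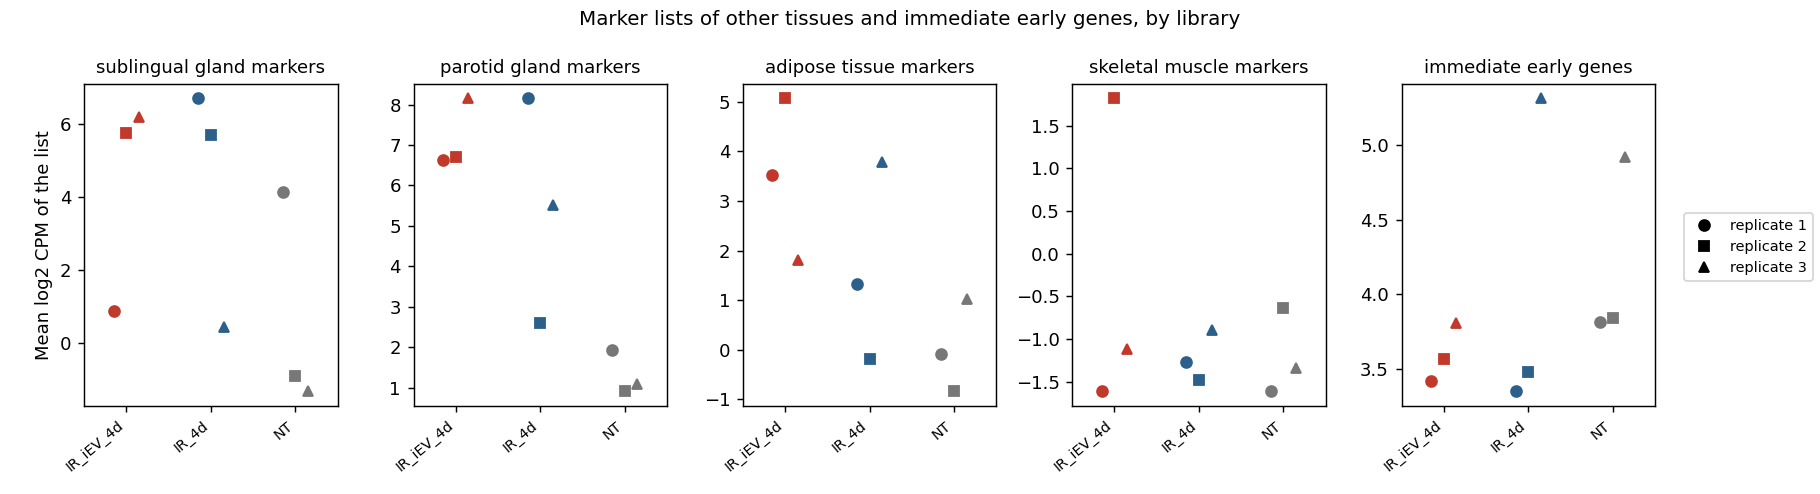
Mean log2 CPM of marker lists for 4 other tissues and of immediate early genes, by library (points; shapes give the replicate number) in IR_iEV_4d, IR_4d and NT. Sublingual markers split both irradiated groups, with IR_iEV_4d replicate 1 at 0.88 and IR_4d replicate 3 at 0.43, and immediate early genes stood out at 5.32 in IR_4d replicate 3.

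Ifit3 had 7.86, 5.99 and 7.06 CPM in IR_iEV_4d replicates 1, 2 and 3, against 2.57, 2.51 and 2.17 CPM in IR_4d. All IR_iEV_4d libraries were above all IR_4d libraries. Ifit3, whose product belongs to a family of antiviral proteins that bind or help bind viral RNA, rose by 1.52 ± 0.21 on the log2 scale (SE; 95% interval 1.09 to 1.96; adjusted p = 0.0104, edgeR quasi-likelihood test with Benjamini-Hochberg adjustment). The reads behind these values numbered 62 to 290 per library. The 5 genes that rose were 0.0312% of the genes tested, and no gene passed as lower (0%, smallest adjusted p = 0.188). At an unadjusted p under 0.05, 617 genes were higher (3.85%) and 476 were lower (2.97%). DESeq2 called 25 genes higher and 7 lower on the same counts, and limma-voom called 0.

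Irf7 had 16.3, 17.9 and 16.9 CPM in IR_iEV_4d, against 6.92, 6.49 and 5.49 CPM in IR_4d. Irf7 is a transcription factor that drives interferon genes and is itself induced by interferon. It rose by 1.43 ± 0.20 on the log2 scale (adjusted p = 0.0104, edgeR). The lowest IR_iEV_4d library stood above the highest IR_4d library by more than the whole range within either group.

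Rtp4 had 5.11, 5.72 and 5.53 CPM in IR_iEV_4d, against 1.57, 2.57 and 1.54 CPM in IR_4d. The groups did not overlap, and IR_4d replicate 2 was the highest of its group. Rtp4, an interferon-induced protein first described as a chaperone of receptors on their way to the cell surface, rose by 1.52 ± 0.21 on the log2 scale (adjusted p = 0.0104, edgeR).

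Bst2 had 12.3, 13.5 and 11.5 CPM in IR_iEV_4d, against 6.68, 6.46 and 7.03 CPM in IR_4d. The values within each group were close to each other and the groups did not overlap. Bst2 encodes tetherin, which holds budding enveloped virus particles at the cell surface and also marks plasmacytoid dendritic cells in mice. It rose by 0.89 ± 0.14 on the log2 scale (adjusted p = 0.0376, edgeR).

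Sdc3 had 20.1, 24.2 and 19.0 CPM in IR_iEV_4d, against 12.9, 13.6 and 11.9 CPM in IR_4d. IR_iEV_4d replicate 2 was the highest of the 6 libraries, and the groups did not overlap. Syndecan 3 carries heparan sulfate chains, and its gene rose by 0.72 ± 0.12 on the log2 scale (adjusted p = 0.0440, edgeR). In the list of 24 proteoglycan core and heparan sulfate genes it was the only one that passed, and the median change of that list was 0.07.

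**Figure D2:**
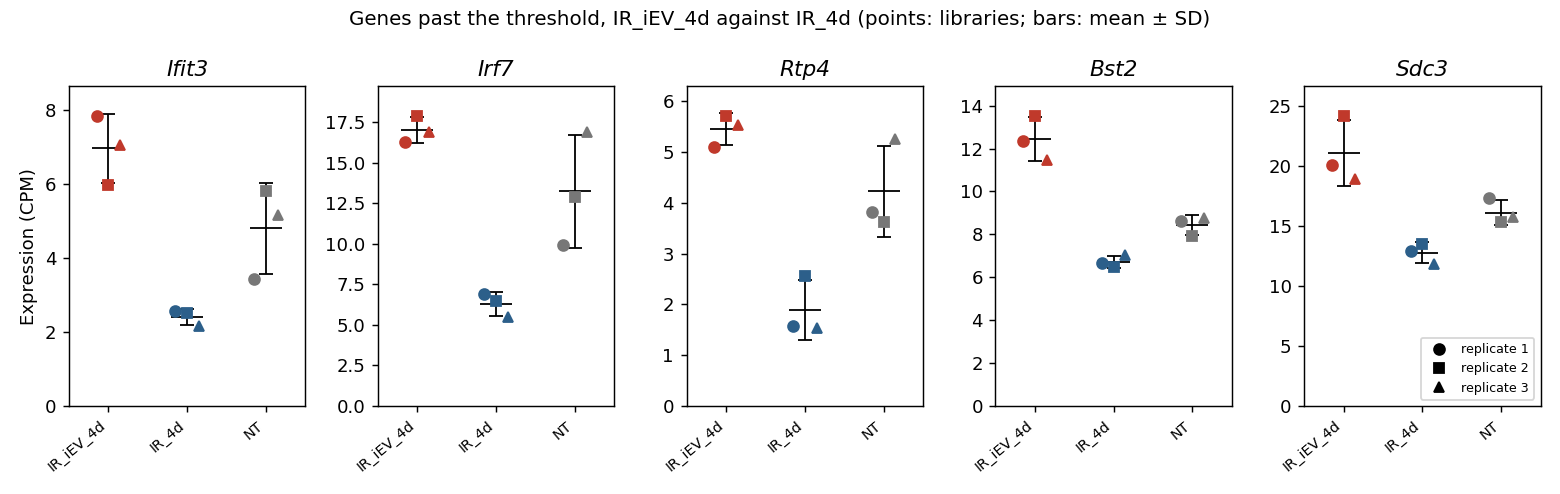
Expression in CPM of the 5 genes past the threshold, by library (points; shapes give the replicate number) with the mean and SD of 3 libraries, in IR_iEV_4d, IR_4d and NT. For each gene the 3 IR_iEV_4d libraries lay above the 3 IR_4d libraries, as for Irf7 with 16.3 to 17.9 CPM against 5.49 to 6.92 CPM.

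Nontreated glands help to place these levels. Ifit3 had 3.44, 5.82 and 5.18 CPM in NT replicates 1, 2 and 3. It was lower in IR_4d than in NT by a log2 change of -0.99 (adjusted p = 0.0199, edgeR), and it differed between IR_iEV_4d and NT by 0.53 (adjusted p = 0.164). Irf7 had 9.94, 12.9 and 16.9 CPM in NT, with a log2 change of -1.07 in IR_4d against NT (adjusted p = 0.00878) and 0.36 in IR_iEV_4d against NT (adjusted p = 0.358). Rtp4 had 3.81, 3.62 and 5.25 CPM in NT, with -1.16 in IR_4d against NT (adjusted p = 0.00731) and 0.36 in IR_iEV_4d against NT (adjusted p = 0.389). These 3 genes thus fell in irradiated glands without iEVs and did not pass the test in irradiated glands with iEVs. Bst2 had 8.62, 7.92 and 8.76 CPM in NT, and it rose in IR_iEV_4d against NT by 0.56 (adjusted p = 0.0454) while IR_4d against NT gave -0.33 (adjusted p = 0.377). Sdc3 had 17.3, 15.3 and 15.8 CPM in NT, and neither IR_4d (-0.33, adjusted p = 0.250) nor IR_iEV_4d (0.39, adjusted p = 0.0969) passed against it. Over all genes 0.835% rose and 0.561% fell in IR_4d against NT, and 1.35% rose and 0.96% fell in IR_iEV_4d against NT. The comparisons share libraries, so their values are set side by side and are not independent of each other.

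The rise of these 5 genes kept its direction in the other fits, but not always its side of the threshold. With the 4 day 4 libraries high in sublingual markers (sublingual-high) left out (and 2 such libraries of other groups), 1 library per group remained and none of the 5 genes passed. The log2 changes were then 1.84 for Ifit3, 1.55 for Irf7, 1.71 for Rtp4, 0.80 for Bst2 and 0.74 for Sdc3, with the lone libraries assumed to vary like those of the other groups. With sublingual and adipose marker levels as covariates the changes were 1.59 for Ifit3, 1.49 for Irf7, 1.55 for Rtp4, 0.76 for Bst2 and 0.64 for Sdc3, and none passed (adjusted p 0.0576 to 0.366). The part of these tissues in the differences was not tested beyond these fits. The 5 genes became 0 without IR_4d replicate 1, without IR_4d replicate 3 or without IR_iEV_4d replicate 1. They became 1 without IR_4d replicate 2 or without IR_iEV_4d replicate 2, and 7 without IR_iEV_4d replicate 3.

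The other interferon-linked genes were described through 5 lists with 110 tested members in all. Of these, 4 passed as higher and 0 as lower. At an unadjusted p under 0.05, 52 were higher and 1 was lower, against the 3.85% and 2.97% over all genes. The lists were chosen with earlier results of these data known, so their counts and medians describe the members and are not a test. The groups did not overlap in 53 members that were higher and 2 that were lower, and over all genes 7.31% were higher and 6.92% lower in this way. The median log2 change was 0.40, with 94 of 110 members positive, and the median over all genes was 0.00 with a 10th to 90th percentile of -0.35 to 0.38. The mean log2 CPM of the 110 genes was 2.92, 2.80 and 2.85 in IR_iEV_4d, 2.40, 2.44 and 2.29 in IR_4d, and 2.65, 2.67 and 2.97 in NT. All IR_iEV_4d libraries lay above all IR_4d libraries, and NT libraries overlapped with IR_iEV_4d. In bulk samples, fewer cells that express such genes and less RNA per cell cannot be told apart.

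Ifng, the type II interferon, had 0 reads in each IR_iEV_4d library and 1 read in all 3 IR_4d libraries together. A count of 0 leaves an expected count of up to 3 reads in that library possible. A search of the deposited counts by gene symbol found 1 interferon ligand gene, which was Ifng. Transcripts of the type I and type III interferons therefore could not be assessed here. Among 20 receptors, IRF and STAT factors, Irf7 rose and the median change was 0.22. In this list 8 members were higher at an unadjusted p under 0.05, beside 3.85% of all genes. Stat2, a transcription factor of type I signalling, had 50.7, 47.6 and 46.9 CPM in IR_iEV_4d against 32.6, 44.5 and 33.0 CPM in IR_4d, with a change of 0.40 that did not pass (adjusted p = 0.462, edgeR). The groups did not overlap for Stat2. Usp18, which removes Isg15 from proteins and dampens the interferon receptor, had 5.14, 3.66 and 3.94 CPM in IR_iEV_4d against 1.86, 2.02 and 1.33 CPM in IR_4d. Its change of 1.28 did not pass in edgeR (adjusted p = 0.361), although DESeq2 called it (adjusted p = 0.0287).

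Among the effectors, the 13 OAS and IFIT genes had the highest median of the 5 lists, at 0.90. Of them 12 were positive, 10 were higher at an unadjusted p under 0.05 (beside 3.85% of all genes) and 1, Ifit3, passed. Oas2 had 3.90, 4.38 and 4.97 CPM in IR_iEV_4d against 1.98, 1.75 and 0.909 CPM in IR_4d. The OAS enzymes make a short adenylate chain that activates the nuclease RNase L. The change of Oas2 was 1.50 ± 0.27 and missed the threshold (adjusted p = 0.0724, edgeR), passing in DESeq2, under upper quartile scaling and with no low-count filter. Oas3 had 1.38, 1.90 and 1.14 CPM in IR_iEV_4d against 0.414, 0.513 and 0.454 CPM in IR_4d, a change of 1.67 that did not pass in edgeR (adjusted p = 0.188). Ifit1, which binds viral RNA that lacks the host cap methylation, had 5.93, 5.18 and 6.36 CPM in IR_iEV_4d against 2.69, 3.44 and 2.13 CPM in IR_4d. The groups did not overlap for any of the 3 genes, and the change of Ifit1 was 1.07 (adjusted p = 0.155, edgeR). DESeq2 called Oas3 (adjusted p = 0.0102) and Ifit1 (adjusted p = 0.0031).

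The 39 other interferon-induced effectors had a median of 0.53, with 36 positive and 2 that rose (Rtp4 and Bst2). Of them 21 were higher at an unadjusted p under 0.05, beside 3.85% of all genes. Lgals3bp, a secreted glycoprotein that binds galectins, had 50.8, 63.4 and 47.7 CPM in IR_iEV_4d against 24.2, 32.6 and 22.7 CPM in IR_4d. Its change was 1.02 ± 0.18 and did not pass (adjusted p = 0.144, edgeR). Lgals9, a galectin that binds immune cell surface glycans, had 8.71, 12.5 and 10.9 CPM in IR_iEV_4d against 6.27, 5.13 and 5.28 CPM in IR_4d, a change of 0.95 (adjusted p = 0.149). Neither gene overlapped between the groups, and IR_iEV_4d replicate 2 was highest for both. Ifitm3, which blocks fusion of virus with endosomes, had 30.5, 33.6 and 31.1 CPM in IR_iEV_4d against 17.1, 22.3 and 21.6 CPM in IR_4d, a change of 0.64 (adjusted p = 0.185). Cmpk2, a mitochondrial nucleotide kinase, had 3.90, 3.21 and 4.04 CPM in IR_iEV_4d against 1.80, 2.14 and 1.01 CPM in IR_4d, a change of 1.16 (adjusted p = 0.188). Isg15, a ubiquitin-like modifier, had 3.93, 3.37 and 2.82 CPM in IR_iEV_4d against 2.57, 2.05 and 1.01 CPM in IR_4d. Its groups did not overlap, and its change of 0.83 had a 95% interval of 0.14 to 1.52 (adjusted p = 0.660). DESeq2 called Lgals3bp (adjusted p = 5.04e-05), Lgals9 (0.0031), Ifitm3 (0.00785) and Cmpk2 (0.00491), which edgeR did not.

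The 22 nucleic acid sensors had a median of 0.25, with none past the adjusted threshold. Of them 5 were higher and 1 lower at an unadjusted p under 0.05, beside 3.85% and 2.97% of all genes. Rigi, the RNA sensor RIG-I, had 26.3, 23.03 and 23.7 CPM in IR_iEV_4d against 14.3, 20.2 and 15.0 CPM in IR_4d, a change of 0.56 (adjusted p = 0.454). Zbp1, a sensor of left-handed nucleic acid helices, had 1.54, 1.76 and 1.85 CPM in IR_iEV_4d against 0.887, 0.574 and 0.734 CPM in IR_4d, a change of 1.23 (adjusted p = 0.467). For both genes each IR_iEV_4d library lay above each IR_4d library. The 16 guanylate-binding proteins and immunity GTPases, which act on the membranes of intracellular pathogens and are strongly induced by interferon gamma, had a median of 0.49. Of them 15 were positive, 8 were higher at an unadjusted p under 0.05 (beside 3.85% of all genes) and none passed. Irgm2 had 13.1, 12.5 and 12.4 CPM in IR_iEV_4d against 7.45, 9.69 and 4.86 CPM in IR_4d, a change of 0.78 (adjusted p = 0.437), and Gbp6 had 6.48, 5.54 and 6.01 CPM in IR_iEV_4d against 3.40, 3.29 and 3.43 CPM in IR_4d, a change of 0.83 (adjusted p = 0.498).

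**Figure D3:**
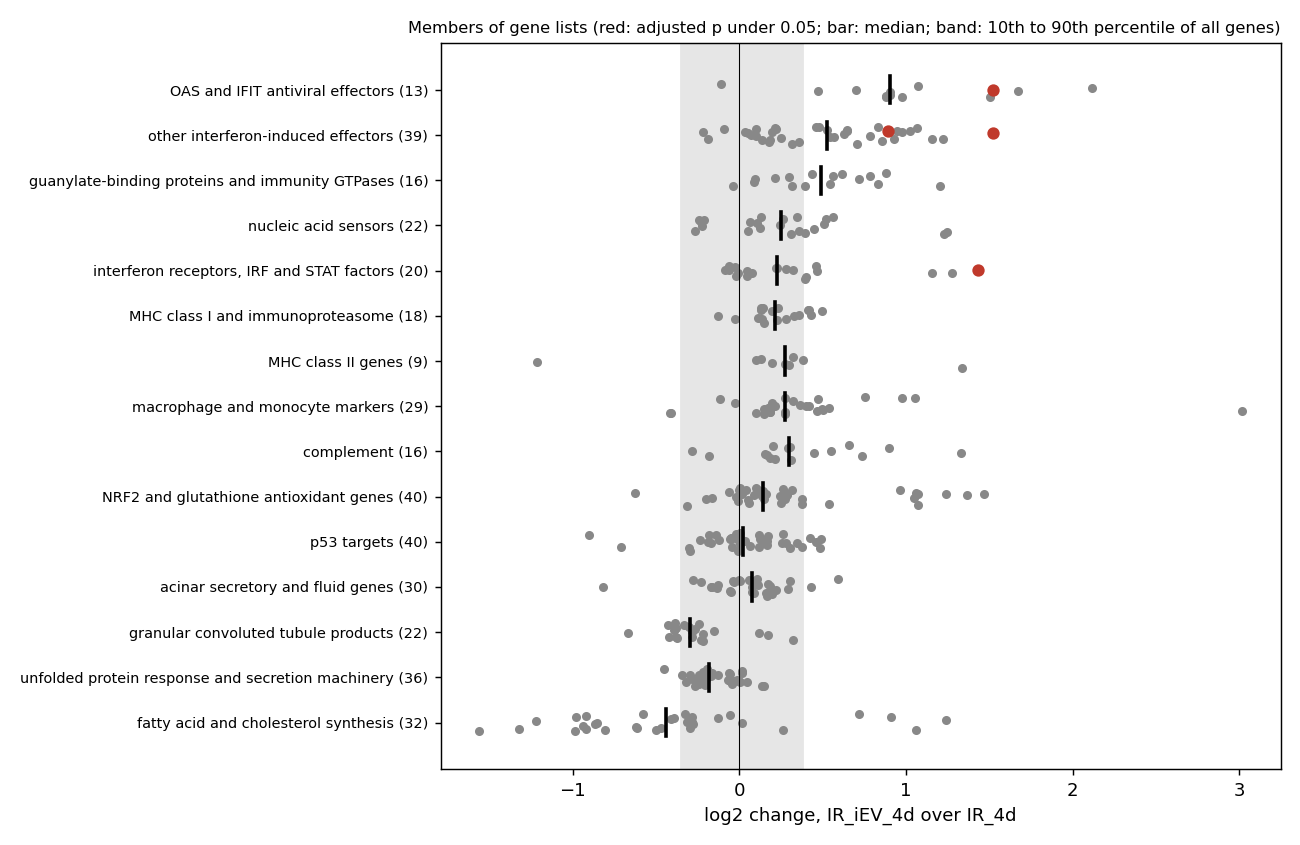
Log2 change of IR_iEV_4d over IR_4d for the tested members of 15 gene lists (points; red points had an adjusted p under 0.05), with each list's median (bar) and the 10th to 90th percentile of all genes (band). The OAS and IFIT genes had a median of 0.90, and fatty acid and cholesterol synthesis had a median of -0.44 with no member past the threshold.

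Genes of antigen presentation, macrophages and complement mostly had positive changes, and none passed. Of 18 MHC class I and immunoproteasome genes, 16 were positive (median 0.21). In this list 4 were higher at an unadjusted p under 0.05, beside 3.85% of all genes. H2-T23, a nonclassical class I gene, had 50.3, 49.7 and 48.5 CPM in IR_iEV_4d against 38.8, 40.4 and 30.9 CPM in IR_4d, a change of 0.43 (adjusted p = 0.454, edgeR). Of 9 class II genes, 8 were positive (median 0.27), and 6 fell in IR_4d against NT, beside 0.561% of all genes. H2-Ab1, the beta chain of a class II molecule, had 39.1, 42.1 and 39.8 CPM in IR_iEV_4d, 31.5, 31.9 and 29.4 CPM in IR_4d and 46.5, 58.3 and 62.2 CPM in NT. The IR_iEV_4d values lay between those of the other groups, and the change of 0.38 between IR_iEV_4d and IR_4d did not pass (adjusted p = 0.454). Of 29 macrophage and monocyte markers 25 were positive (median 0.27), and the groups did not overlap in 14 that were higher and 1 that was lower, beside 7.31% and 6.92% of all genes. C1qb, a chain of the first complement component made mainly by macrophages, had 27.1, 26.3 and 27.2 CPM in IR_iEV_4d against 21.8, 18.2 and 17.1 CPM in IR_4d, a change of 0.50 (adjusted p = 0.358). Immune cell marker lists did not all move alike. The median change was -0.66 over 2 neutrophil markers, -0.44 over 6 B and plasma cell markers and 0.03 over 17 T and NK cell markers. The 2 neutrophil markers, of 10 listed, went opposite ways, with Csf3r at 0.10 and Mmp9 at -1.42. Leaving out 1 library moved the B and plasma cell median to between -0.87 and 0.096. The mean log2 CPM of that list was 1.17, 1.19 and 1.71 in IR_iEV_4d and 2.25, 2.24 and 1.28 in IR_4d, which overlap. Between IR_iEV_4d and IR_4d, the levels of the macrophage and dendritic cell lists moved in the direction of the interferon-linked genes. For the macrophage and monocyte list the mean log2 CPM was 2.60, 2.72 and 2.61 in IR_iEV_4d and 2.36, 2.27 and 2.26 in IR_4d. For 11 dendritic cell markers, of which Bst2 is one, it was -0.18, -0.0045 and 0.25 in IR_iEV_4d and -0.36, -0.47 and -0.36 in IR_4d, with 10 positive changes and a median of 0.53. For both lists the groups did not overlap. The part of these cells in the interferon-linked result was not tested.

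Cfb, the protease precursor of the alternative complement pathway, had 7.93, 9.22 and 7.77 CPM in IR_iEV_4d against 4.52, 4.38 and 4.51 CPM in IR_4d. The groups were far apart relative to their spread, and the change of 0.89 ± 0.16 missed the threshold (adjusted p = 0.0639, edgeR) and passed in DESeq2, under upper quartile scaling and with no low-count filter. C4b, of the classical pathway, had 20.9, 33.2 and 23.3 CPM in IR_iEV_4d against 16.1, 12.4 and 18.1 CPM in IR_4d, a change of 0.73 (adjusted p = 0.454). The 16 complement genes had a median of 0.30, with 14 positive, and a median of 0.064 without the sublingual-high libraries. T and NK cell markers did not share this direction, with a median of 0.03 over 17 tested of 26 listed genes. Cxcl10, a chemokine induced by interferon gamma that draws such cells, had 0.884, 0.362 and 0.779 CPM in IR_iEV_4d against 0.591, 0.483 and 0.664 CPM in IR_4d, and the groups overlapped (change 0.21, 95% interval -0.71 to 1.12). Cxcl9, another chemokine, had 0.917, 1.06 and 0.633 CPM in IR_iEV_4d against 0.355, 0.0906 and 0.420 CPM in IR_4d. Its groups did not overlap, and its change of 1.60 did not pass (adjusted p = 0.652, edgeR). Of 20 chemokines tested 10 were positive, with a median of 0.03.

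Antioxidant genes gave 0 calls in edgeR among 40 tested, with a median of 0.14. Of them 13 were higher and 1 lower at an unadjusted p under 0.05, beside 3.85% and 2.97% of all genes. Gstm1, a glutathione transferase, had 71.2, 76.3 and 56.8 CPM in IR_iEV_4d against 34.4, 36.4 and 34.1 CPM in IR_4d. The groups did not overlap, and the change of 0.96 ± 0.23 did not pass (adjusted p = 0.402) but passed in DESeq2 and in the fit of the 6 libraries alone. NT libraries had 71.2, 35.5 and 38.1 CPM of Gstm1 and spanned both groups. Gsta3, another transferase, had 9.63, 7.64 and 6.84 CPM in IR_iEV_4d against 4.76, 3.65 and 3.11 CPM in IR_4d, a change of 1.06 (adjusted p = 0.358) that passed in DESeq2. Nqo1, a quinone reductase controlled by Nrf2, had 2.29, 1.45 and 1.61 CPM in IR_iEV_4d against 0.710, 0.785 and 0.559 CPM in IR_4d, a change of 1.37 (adjusted p = 0.462). Nfe2l2, which encodes Nrf2, had 84.3, 79.1 and 78.5 CPM in IR_iEV_4d against 86.8, 95.2 and 88.8 CPM in IR_4d. Its change of -0.16 went the other way and did not pass (adjusted p = 0.727). Aldh3a1, an aldehyde dehydrogenase, had 2.85, 1.58 and 1.19 CPM in IR_iEV_4d against 1.03, 0.815 and 0.839 CPM in IR_4d, a change of 1.05 with a 95% interval of 0.07 to 2.03 (adjusted p = 0.703).

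Lipid synthesis and secretory pathway genes mostly had negative changes, and none passed in edgeR. Of 32 fatty acid and cholesterol synthesis genes 6 were positive, and the median was -0.44. In this list 10 were lower and 0 higher at an unadjusted p under 0.05, beside 2.97% and 3.85% of all genes. Dhcr7, the last enzyme of cholesterol synthesis, had 28.0, 31.3 and 29.1 CPM in IR_iEV_4d against 46.7, 40.6 and 48.3 CPM in IR_4d. Its change of -0.62 ± 0.14 did not pass in edgeR (adjusted p = 0.358) and passed in DESeq2 (adjusted p = 0.0394). Srebf2, the transcription factor that drives cholesterol synthesis genes, had 74.0, 80.0 and 74.2 CPM in IR_iEV_4d against 115, 98.1 and 110.0 CPM in IR_4d, a change of -0.50 (adjusted p = 0.542). For both genes the groups did not overlap, and NT libraries ran between 28.7 and 44.3 CPM of Dhcr7 and between 69.1 and 109 CPM of Srebf2. Of 36 unfolded protein response and secretion genes, 18 did not overlap between the groups and were lower, and none was higher in this way, beside 6.92% and 7.31% of all genes. The median was -0.18, and it was -0.080 without IR_iEV_4d replicate 2. Dnajb11, a chaperone partner of the endoplasmic reticulum, had 76.9, 84.4 and 80.8 CPM in IR_iEV_4d against 94.8, 94.3 and 93.8 CPM in IR_4d, a change of -0.22 (adjusted p = 0.652).

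Outside the lists, the lower genes with the smallest p were Lactb2 and Shank2. Lactb2, a mitochondrial RNA nuclease, had 62.3, 55.6 and 61.8 CPM in IR_iEV_4d against 81.6, 72.9 and 78.9 CPM in IR_4d, and Shank2, a scaffold protein, had 76.6, 79.2 and 82.5 CPM in IR_iEV_4d against 102, 107 and 96.3 CPM in IR_4d. Their changes of -0.38 and -0.36 did not pass (adjusted p = 0.188 for both, edgeR), and DESeq2 called both. Abhd5, a cofactor of the lipase that opens lipid droplets, had 27.6, 27.1 and 25.0 CPM in IR_iEV_4d against 20.4, 18.7 and 19.4 CPM in IR_4d, a change of 0.45 that did not pass in edgeR (adjusted p = 0.149) and passed in DESeq2 (adjusted p = 0.00214). Adipose markers were uneven over these libraries, as given above, and their part in lipid genes was not tested beyond the covariate fit.

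The p53 targets mark the response to irradiation itself. Of 40 tested, 25 rose in IR_4d against NT, beside 0.835% of all genes, and the median over the list was 1.11. Between IR_iEV_4d and IR_4d none passed and the median was 0.02. Among these targets 5 were higher at an unadjusted p under 0.05, beside 3.85% of all genes. The groups did not overlap in 14 targets that were higher and 2 that were lower in IR_iEV_4d, beside 7.31% and 6.92% of all genes. Cdkn1a, which encodes the cell cycle inhibitor p21, had 74.3, 86.0 and 70.9 CPM in IR_iEV_4d, 44.1, 64.1 and 60.3 CPM in IR_4d and 2.92, 1.76 and 3.03 CPM in NT. Both irradiated groups were far above NT, and the change of 0.46 between them had a 95% interval of 0.01 to 0.91 (adjusted p = 0.727, edgeR). Phlda3, a p53-induced inhibitor of Akt, had 68.5, 76.8 and 63.2 CPM in IR_iEV_4d against 47.8, 59.0 and 57.4 CPM in IR_4d, a change of 0.34 (adjusted p = 0.606). Mdm2, the ligase that degrades p53, overlapped between the groups, with 58.3, 42.7 and 54.6 CPM in IR_iEV_4d against 53.1, 51.4 and 57.5 CPM in IR_4d (change -0.06, 95% interval -0.28 to 0.16). Gdf15, a stress cytokine, had 38.4, 43.0 and 42.2 CPM in IR_iEV_4d against 35.8, 29.4 and 35.0 CPM in IR_4d, and its change of 0.30 did not pass (95% interval -0.40 to 1.01).

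Secretory genes of the gland did not pass either. Aqp5, for which levels are given above, had a change of -0.06 (95% interval -0.26 to 0.15). Over 30 acinar secretory and fluid genes the median was 0.07, and over 22 granular convoluted tubule products it was -0.29. Among the tubule products 3 were positive, and 4 were lower at an unadjusted p under 0.05, beside 2.97% of all genes. Leaving out 1 library moved these medians, to between -0.016 and 0.070 for the acinar list and to between -0.55 (without IR_iEV_4d replicate 3) and -0.17 (without IR_iEV_4d replicate 2) for the tubule list. Most of the tubule genes are glandular kallikreins with near-identical copies, so their counts are uncertain. Gli1, a target of hedgehog signalling, had 0.884, 0.249 and 0.414 CPM in IR_iEV_4d against 0.798, 0.302 and 0.944 CPM in IR_4d, and the groups overlapped. Lcn2, an iron-binding protein of inflammation, had 14.2, 12.6 and 20.1 CPM in IR_iEV_4d against 22.03, 15.8 and 29.4 CPM in IR_4d, with a change of -0.52 that did not pass (95% interval -1.18 to 0.15).

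Endothelial and matrix genes gave 0 calls in edgeR. Of 23 endothelial markers 21 were positive, with a median of 0.31. In this list 4 were higher at an unadjusted p under 0.05, beside 3.85% of all genes. Cd34 had 16.9, 19.1 and 17.9 CPM in IR_iEV_4d against 13.2, 13.4 and 13.4 CPM in IR_4d, and its groups did not overlap (change 0.43, adjusted p = 0.578). Of 36 extracellular matrix and fibroblast genes, 10 were higher and 1 lower at an unadjusted p under 0.05, beside 3.85% and 2.97% of all genes. Their median of 0.15 became 0.097 without IR_iEV_4d replicate 2 and -0.089 without the sublingual-high libraries. Sparc, a secreted collagen-binding protein, had 188, 242 and 184 CPM in IR_iEV_4d against 155, 154 and 168 CPM in IR_4d, a change of 0.37 (adjusted p = 0.402). Among 33 cell cycle genes the groups did not overlap in 5 that were higher and 5 that were lower, beside 7.31% and 6.92% of all genes. The median over these cell cycle genes was 0.18. That median was 0.061 without IR_4d replicate 2, 0.52 without IR_4d replicate 3 and -0.30 without the sublingual-high libraries. Ube2c, a ubiquitin-conjugating enzyme of mitotic exit, had 2.82, 5.13 and 2.75 CPM in IR_iEV_4d against 1.33, 0.604 and 2.20 CPM in IR_4d (change 1.38, adjusted p = 0.539). Ccne1, which encodes cyclin E1 of the entry into S phase, had 0.262, 0.429 and 0.560 CPM in IR_iEV_4d against 1.06, 0.664 and 1.40 CPM in IR_4d (change -1.30, adjusted p = 0.606).

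The immediate early genes rested on 1 library. Fosb, a component of the AP-1 factor, had 0.426, 1.38 and 0.657 CPM in IR_iEV_4d against 0.325, 0.211 and 66.9 CPM in IR_4d, and 1.43, 1.19 and 11.8 CPM in NT. IR_4d replicate 3 and, less so, NT replicate 3 stood apart from the other libraries. The log2 change of Fosb was -4.72 with all libraries and 1.63 without IR_4d replicate 3, and neither passed. The median over 20 immediate early genes was -0.36 with that library and 0.10 without it.

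The difference between irradiated glands with and without iEVs was not the same at day 30, for which other libraries were used. A test of the difference between the days called 20 genes (0.125% of the genes tested), all with a lower value at day 30, and 0 genes with a higher value (0%, smallest adjusted p = 0.0803). At an unadjusted p under 0.05, 1452 genes (9.05%) differed in either direction, and DESeq2 called 97 lower and 22 higher. All 20 genes were positive at day 4 and negative at day 30. Being called for a lower value at day 30 favours these signs, so they are not a separate result. Of the 20, 5 rose at day 4 and 10 fell at day 30, and 10 belong to the interferon-linked lists. Over all genes 0.168% rose and 0.63% fell in IR_iEV_30d against IR_30d.

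Ifit3 had 7.53, 7.02 and 4.93 CPM in IR_iEV_30d against 13.0, 12.2 and 15.6 CPM in IR_30d. Over both days the glands with iEVs lay between 4.93 and 7.86 CPM, while all glands without iEVs lay below that range at day 4 and above it at day 30. The log2 change of Ifit3 was 1.52 ± 0.21 at day 4 and -1.07 ± 0.19 at day 30, and the difference of -2.60 ± 0.28 passed (adjusted p = 0.000787, edgeR). Irf7 had 27.8, 16.9 and 24.4 CPM in IR_iEV_30d against 27.4, 29.2 and 34.9 CPM in IR_30d. Its change at day 30 was -0.40 and did not pass, although its difference between the days did (-1.83, adjusted p = 0.00893). Over the 110 interferon-linked genes the median change was 0.40 at day 4 and -0.40 at day 30. Their mean log2 CPM was 3.15, 3.02 and 2.83 in IR_iEV_30d against 3.33, 3.50 and 3.51 in IR_30d.

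**Figure D4:**
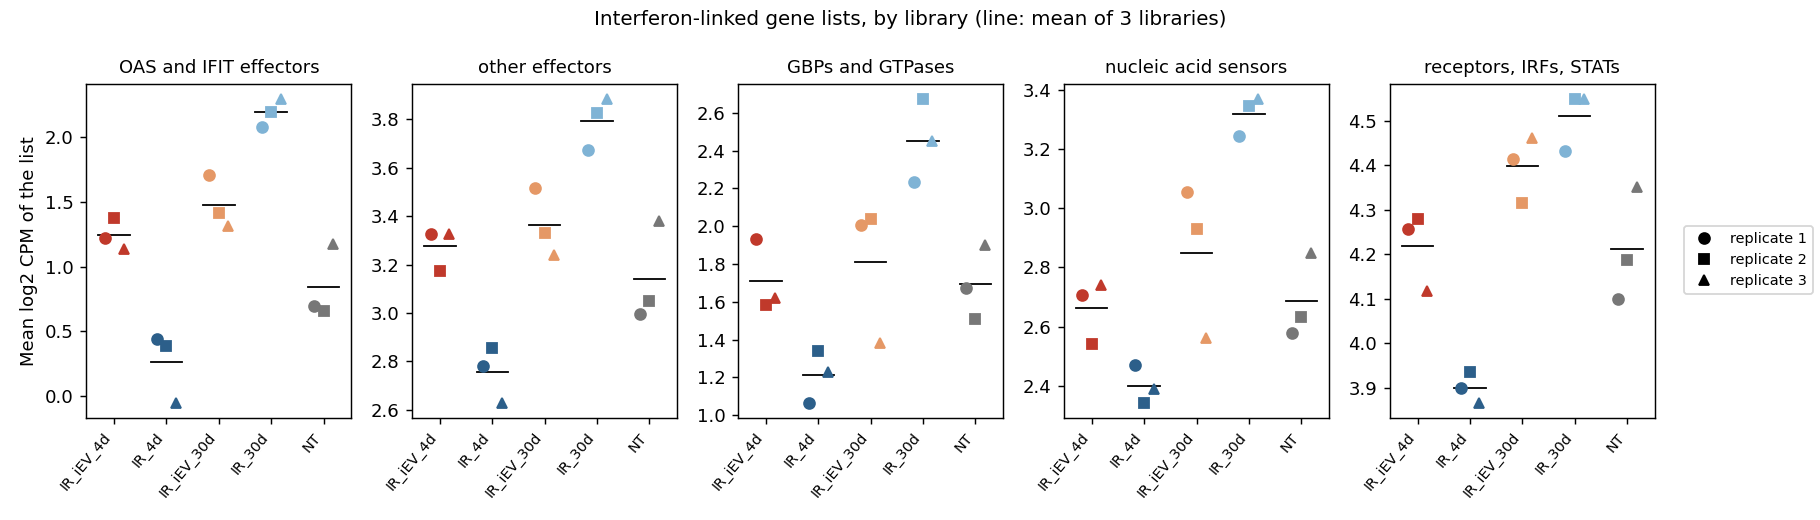
Mean log2 CPM of 5 interferon-linked gene lists, by library (points; shapes give the replicate number) with the mean of 3 libraries (line), in IR_iEV_4d, IR_4d, IR_iEV_30d, IR_30d and NT. For the OAS and IFIT genes the IR_iEV_4d libraries stood at 1.14 to 1.38 against -0.05 to 0.44 in IR_4d, and the IR_iEV_30d libraries at 1.31 to 1.71 against 2.08 to 2.30 in IR_30d.

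Cfb, C1qa and C1qb of the complement system were among the 20 genes, with differences between the days of -1.82, -1.04 and -0.98. Siglec1, a receptor on macrophages, and Gbp3 also passed, with differences of -1.49 and -1.82, and both were singled out after their values were seen. For 3 of the 20 genes the day 4 part was close to 0: Nfkb2, a subunit of NF-kB, had a change of 0.04 at day 4 and -1.08 at day 30. Hsd11b1, the enzyme that regenerates active glucocorticoid, had 0.12 at day 4 and -1.39 at day 30, and Slc39a14, a zinc and iron transporter, had 0.01 at day 4 and -0.63 at day 30. Both were likewise singled out after their values were seen. The count of 20 fell to 10 with sublingual and adipose covariates, to 11 with parotid and muscle covariates, and to 5 without the libraries high in sublingual markers.

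**Figure D5:**
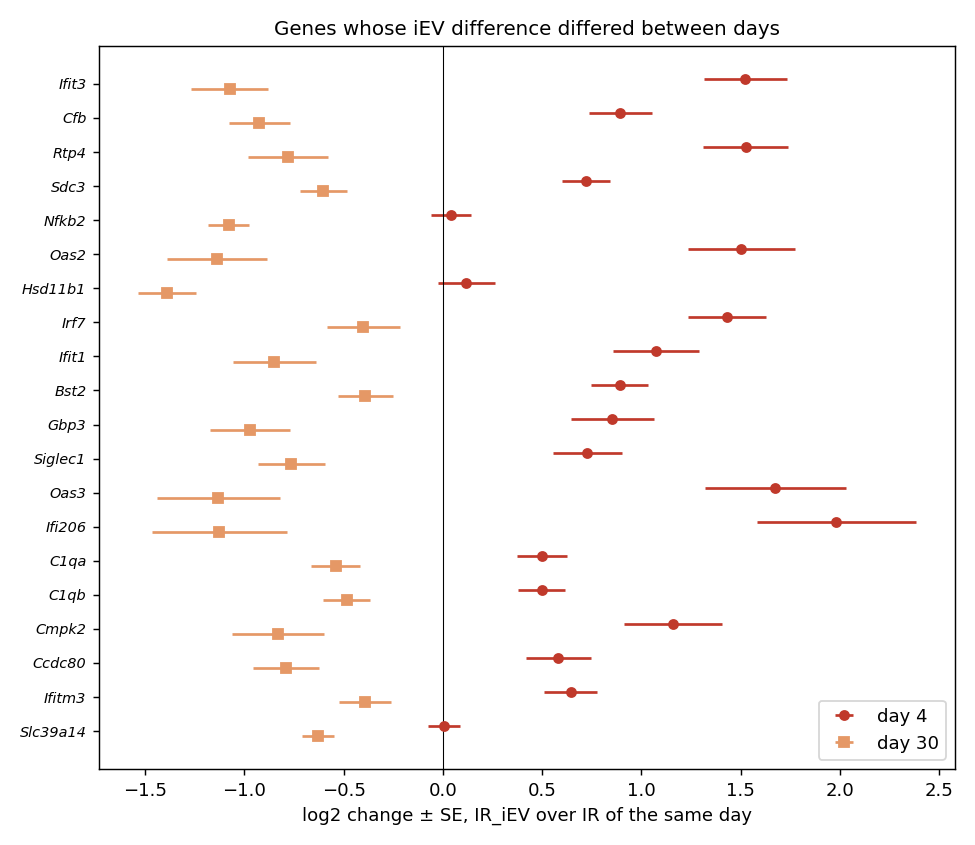
Log2 change ± SE of IR_iEV over IR at day 4 (circles) and day 30 (squares) for the 20 genes whose change differed between the days. All 20 were positive at day 4 and negative at day 30, signs that their selection favours, with Ifit3 at 1.52 and -1.07 and Nfkb2 at 0.04 and -1.08.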

How the data were processed

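RNA was extracted with TRIzol and made into stranded libraries, per the labels' protocols. The authors deposited 1 table of whole-number read counts for 21013 gene symbols in 15 libraries. TopHat, HTSeq, DESeq2 and the genome build GRCm39 are named, without versions, in the submitters' processing notes; the strand setting is not given in the sources used here, so overlapping antisense genes are uncertain. The test was edgeR 4.0.16 under R 4.3.3 on these counts (TMM, filterByExpr with minimum count 10 and minimum total 15, robust quasi-likelihood F test, all 15 libraries in 1 model, 10 residual degrees of freedom). P-values were adjusted by Benjamini-Hochberg over 16042 genes, with a threshold of 0.05. SE is the absolute log2 change over the square root of F. CPM use effective library sizes, and list levels are mean log2 CPM with prior count 2. DESeq2 1.42.0, limma 3.58.1 (voom), other scalings, filters, covariates and left-out libraries were alternatives. The steps were tested on counts simulated from the fitted model. That simulation held no uneven tissue between libraries, so it cannot show how the test handles it. Replicate numbers were not treated as pairs in the main test. Named genes were all those past the threshold, the 8 with the smallest p in each direction among the rest (mean of at least 2 CPM), up to 4 of each list by p, and a set of study genes; the text gives those with a role in its account. Some genes under this rule are not reported here. Members and 46 gene lists were chosen with earlier results of these data known. Precision is limited by 3 libraries per group as well as by counts.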

Additional observations from a re-analysis of the deposited data

Results flagged for a closer look

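The 20 genes below drew attention because the difference between irradiated glands with and without iEVs was itself different on the 2 days, by edgeR's test of that difference with Benjamini-Hochberg adjustment. The values are the log2 change of IR_iEV_30d over IR_30d minus that of IR_iEV_4d over IR_4d. Among members of the interferon-linked lists they were -2.80 for Oas3, -2.64 for Oas2, -2.60 for Ifit3, -2.30 for Rtp4, -1.99 for Cmpk2, -1.92 for Ifit1, -1.83 for Irf7, -1.82 for Gbp3, -1.28 for Bst2 and -1.03 for Ifitm3. Among the genes outside these lists they were -3.11 for Ifi206, -1.82 for Cfb, -1.51 for Hsd11b1, -1.49 for Siglec1, -1.37 for Ccdc80, -1.32 for Sdc3, -1.12 for Nfkb2, -1.04 for C1qa, -0.98 for C1qb and -0.64 for Slc39a14. Absence from the lists does not mean that a gene is not induced by interferon. Of the 20 genes, 5 rose at day 4 and 10 fell at day 30.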

How the results depend on the processing

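The count of 5 higher and 0 lower genes at day 4 became 25 and 7 with DESeq2, 0 higher with limma-voom and with sublingual and adipose covariates, 2 higher with a mean of at least 5 CPM, and 3 higher with parotid and muscle covariates and with only the 6 libraries. With the libraries rich in sublingual markers (sublingual-high) left out it was 1 higher and 4 lower, and none of the 5 genes passed. With the replicate number as a block, 3 genes were higher (Ifit3, Irf7 and Rtp4). Same-number libraries had residual correlations of -0.20, -0.05 and -0.29, so no pairing by number was seen. With 3 libraries per group and uneven tissue markers, these correlations cannot exclude such pairing. Leaving out 1 day 4 library at a time gave 0 to 7 higher and 0 lower. The count of 20 lower genes in the difference between the days became 97 with DESeq2 (22 higher), 10 with sublingual and adipose covariates, 11 with parotid and muscle covariates, and 5 (with 2 higher) once the sublingual-high libraries were left out. Leaving out 1 day 4 library at a time gave 14 to 21 lower and 0 to 1 higher. The 5 genes named first kept their direction in each alternative that could test them. Genes that changed sign did not pass in any of these fits. With parotid and muscle covariates Gdf15 was at -0.057, Nfkb2 at -0.041 and Mdm2 at 0.0012, and without the sublingual-high libraries Nfkb2 was at -0.10, Mdm2 at 0.0029 and Aqp5 at 0.034. Leaving out 1 day 4 library at a time gave -0.025 to 0.52 for Cxcl10, -0.15 to 0.060 for Mdm2, -0.0017 to 0.10 for Nfkb2 and -5.33 to 1.63 for Fosb. The cause of these shifts was not tested. The median over the 110 interferon-linked genes ran between 0.23 (mean of at least 5 CPM) and 0.49.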
